A study of Homo sapiens with 6 samples.

Results

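The 8 genes described here encode secreted or secreted-form proteins of mucosal defence and the acute phase: PIGR, OLFM4, PGLYRP4, LCN2, SLPI, PI3, SAA1 and SAA2. They were selected on their symbols and on the difference between DAZAP1 knockdown and control in these same libraries, so that difference is given for them as a description with no test. All 8 were found among the 30947 genes of the count table, and all 8 were among the 15374 genes that passed the filter on low counts. A gene can pass that filter through the higher group alone.

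The study sequenced RNA of Cal27, a human squamous carcinoma line of the tongue, after a lentivirus had been used to knock down DAZAP1, an RNA-binding protein of splicing and translation. There were 3 knockdown libraries and 3 negative control libraries, and all 6 came from the same line grown in high-glucose medium with serum. The treatment protocol describes the control as empty vector and the design text as a control sequence, and the short hairpin itself is not given in the sources used here. The question put to these libraries was how RNA levels differ once DAZAP1 is reduced. The labels leave unsaid whether the replicates of a group are independent infections or dishes, so a p-value here reflects library-to-library spread alone, which may be technical.

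Mucosal epithelia secrete proteins that keep microbes off the surface. PIGR carries polymeric IgA and IgM through the epithelial cell and is cleaved at the lumen to release secretory component, while other products bind bacterial wall fragments, withhold iron or block the proteases that neutrophils release. SAA1 and SAA2 are the inducible serum amyloid A apolipoproteins, made mainly in liver during the acute phase and also by inflamed epithelium, where IL-1, IL-6, NF-kB and C/EBP factors are known inducers of several genes of this kind.

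DAZAP1 had 262.4, 277.9 and 256.9 CPM (counts scaled to library size, on TMM-scaled totals of the genes tested) in control replicates 1 to 3 and 73.6, 77.8 and 67.5 CPM in knockdown replicates 1 to 3. Its level was lower in every knockdown library (265.7 ± 10.9 CPM in the control against 73.0 ± 5.21 CPM in the knockdown, SD, n = 3 each), with a log2 difference of -1.86 ± 0.038 (SE) and an adjusted p of 1.67e-39 in edgeR's quasi-likelihood test. Library totals were 16333542 to 18955230 counts. Of the 15374 genes tested, 4131 were higher in the knockdown (26.9%) and 4208 were lower (27.4%), so that 54.2% passed the test in one direction or the other. Against that background, a call on a single gene is common in this comparison.

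All 8 genes were higher in the knockdown in every library, with no overlap between the groups. The same separation in that direction was found for 29.5% of all genes tested. A fitted rise of at least 2-fold was found for 6 of the 8 genes and for 5.3% of all genes tested. The median log2 difference was 1.61 over the 8 genes and 0.0024 over all genes tested. Since the genes were chosen for this difference, nothing is read from these counts. The members' summed level was 237.4, 233.3 and 228.4 CPM in the control libraries against 395.4, 393.9 and 408.9 CPM in the knockdown libraries. In RNA from a whole culture, more expressing cells and more RNA per expressing cell cannot be told apart, for these genes or any other named here.

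**Figure D1:**
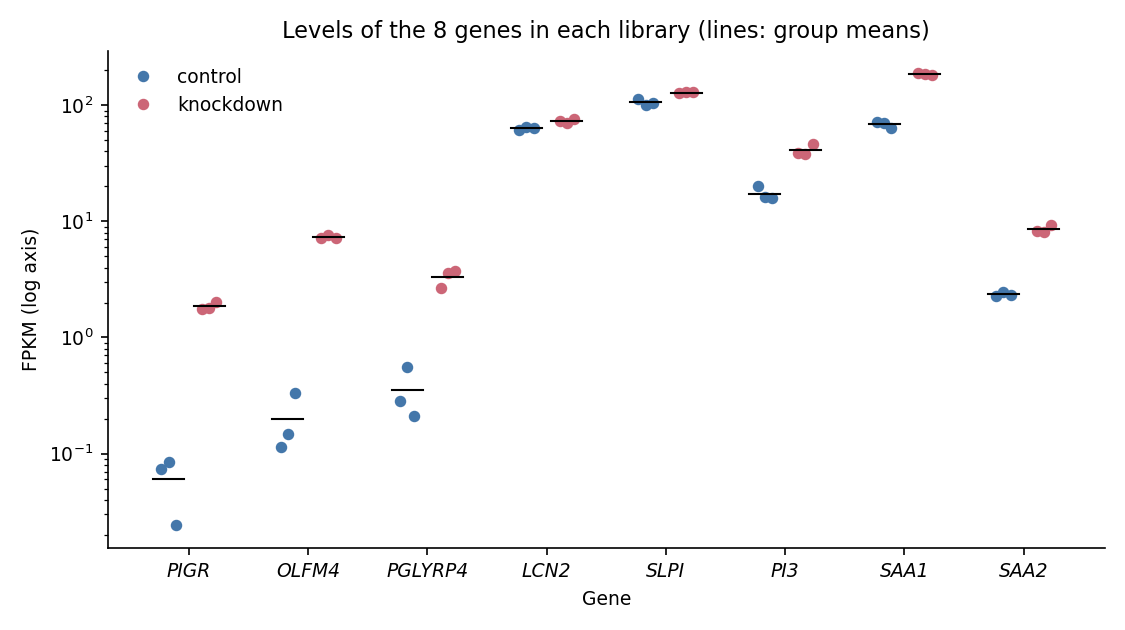
Deposited FPKM (fragments scaled to gene length and library size, log axis) of the 8 genes in each of the 3 control and 3 knockdown libraries. PIGR, OLFM4 and PGLYRP4 lie below 1 FPKM in every control library and above 1 FPKM in every knockdown library, while SLPI, LCN2 and SAA1 exceed 60 FPKM throughout.

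PIGR, the polymeric immunoglobulin receptor, lies on the minus strand of chromosome 1 at 206928522 to 206946466 (ENSG00000162896, coordinates as deposited). It had 6, 7 and 2 counts in the control libraries and 136, 133 and 143 counts in the knockdown libraries. The control libraries were close to the limit of detection, whereas the knockdown libraries lay close together. The mean level was 0.270 ± 0.143 CPM in the control and 8.0 ± 0.595 CPM in the knockdown. The 15 control counts pooled over 3 libraries give an exact Poisson 95% interval of 0.151 to 0.445 CPM, which covers counting error only. The fitted log2 difference was 4.85 ± 0.27 (SE), or 28.9-fold, the fifth largest rise of all genes tested.

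OLFM4, olfactomedin 4, is a secreted glycoprotein known from intestinal crypts and from neutrophil granules. It lies on the plus strand of chromosome 13 at 53028813 to 53052057 (ENSG00000102837). It had 6, 8 and 18 counts in the control libraries and 363, 369 and 337 counts in the knockdown libraries. Control replicate 3 was more than 2-fold above the other control libraries, and all 3 stayed far below the knockdown. Its level was 0.573 ± 0.342 CPM in the control and 20.7 ± 0.739 CPM in the knockdown, a log2 difference of 5.15 ± 0.18 (SE). Without control replicate 3 that log2 difference was 5.74, so the size of the fold rests in part on 1 library with few counts.

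PGLYRP4 encodes a secreted peptidoglycan recognition protein with bactericidal activity. The gene lies on the minus strand of chromosome 1 at 153330120 to 153348841 (ENSG00000163218), between PGLYRP3 and S100A9. It had 12, 24 and 9 counts in the control libraries and 107, 137 and 139 counts in the knockdown libraries. Control replicate 2 and knockdown replicate 1 lay nearest to each other and were still far apart. The level was 0.807 ± 0.422 CPM in the control and 7.46 ± 1.33 CPM in the knockdown, a log2 difference of 3.19 ± 0.23 (SE), or 9.13-fold. The log2 difference ranged from 2.92 to 3.69 when each library was left out in turn.

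LCN2, lipocalin 2, binds bacterial siderophores and so withholds iron from microbes. It lies on the plus strand of chromosome 9 at 128149071 to 128153453 (ENSG00000148346). It had 99.97, 105.3 and 103.6 CPM in the control libraries against 115.4, 111.3 and 121.0 CPM in the knockdown libraries. The groups came close to each other, with control replicate 2 and knockdown replicate 2 nearest. The mean was 103.0 ± 2.73 CPM in the control and 115.9 ± 4.85 CPM in the knockdown. The log2 difference of 0.17 ± 0.038 (SE), or 1.12-fold, was the smallest of the 8 genes and ranked 5163 among the rises of all genes tested.

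SLPI, the secretory leukocyte protease inhibitor, and PI3, or elafin, are small inhibitors of neutrophil elastase that share the whey acidic protein (WAP) fold, and both lie on chromosome 20. SLPI (minus strand, 45252239 to 45254564, ENSG00000124107) had 68.2, 60.8 and 62.9 CPM in the control libraries against 74.8, 76.0 and 76.2 CPM in the knockdown libraries. The knockdown libraries were nearly alike, and the lowest of them exceeded the highest control library. The log2 difference was 0.24 ± 0.047 (SE), or 1.18-fold. PI3 (plus strand, 45174902 to 45176544, ENSG00000124102) had 11.2, 9.04 and 8.84 CPM in the control libraries against 21.2, 20.8 and 25.3 CPM in the knockdown libraries. Every knockdown library was well above every control library, with a log2 difference of 1.21 ± 0.10 (SE), or 2.32-fold. The ratio of SLPI to PI3 counts within a library was 6.11, 6.73 and 7.12 in the control against 3.53, 3.65 and 3.01 in the knockdown. Their coding sequences were 47.3% identical in an end-to-end alignment, with no shared run longer than 9 bases.

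SAA1 (chromosome 11, plus strand, 18266260 to 18269977, ENSG00000173432) had 51.6, 50.5 and 46.2 CPM in the control libraries against 132.1, 130.5 and 128.4 CPM in the knockdown libraries. Levels varied little within either group and lay far apart between them. The mean was 49.4 ± 2.86 CPM in the control and 130.3 ± 1.85 CPM in the knockdown, a log2 difference of 1.40 ± 0.043 (SE), or 2.64-fold. SAA2 (chromosome 11, minus strand, 18239223 to 18248668, ENSG00000134339) had 5.20, 5.62 and 5.25 CPM in the control libraries against 18.3, 18.1 and 20.5 CPM in the knockdown libraries. Its groups were as cleanly apart, with a log2 difference of 1.82 ± 0.11 (SE), or 3.53-fold. The ratio of SAA1 to SAA2 counts was 9.93, 8.99 and 8.80 in the control libraries and 7.23, 7.21 and 6.27 in the knockdown libraries. Both ratios, like the levels they come from, were part of the contrast used for the choice and are given without a test.

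**Figure D2:**
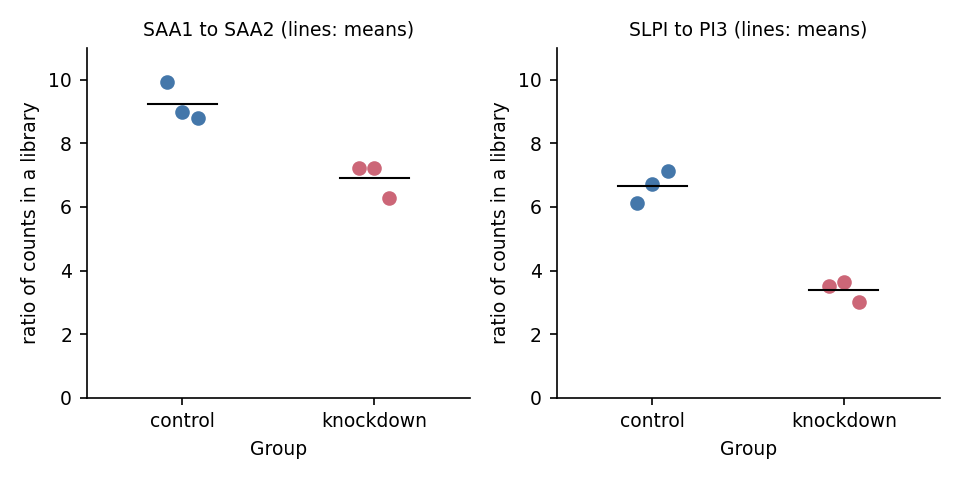
Ratio of raw counts within each library, SAA1 to SAA2 on the left and SLPI to PI3 on the right, with points for the 3 libraries of a group and a line for their mean. Mean ratios are 9.24 and 6.90 for the SAA pair and 6.65 and 3.40 for the protease inhibitor pair, in control and knockdown respectively.

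The counts of SAA1 and SAA2 are uncertain because the genes are near copies of each other. Over 369 coding bases each (GENCODE release 29), 358 were identical, or 97.0%, and the longest identical run was 186 bases long. In SAA1 this run occupies coding bases 44 to 229, in exons 2 and 3, at chr11:18266931-18269332 on the plus strand, and in SAA2 it lies at chr11:18245911-18247968 on the minus strand, also in exons 2 and 3. The run is shown because a read that falls inside it matches either gene equally well; it is joined across the intron and has no capitals, as no base in it differs.
SAA1 and SAA2 shared coding run: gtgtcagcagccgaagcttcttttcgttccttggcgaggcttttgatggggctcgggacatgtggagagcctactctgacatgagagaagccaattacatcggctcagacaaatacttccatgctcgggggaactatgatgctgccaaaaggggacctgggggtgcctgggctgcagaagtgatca
Counted from 1 at the start codon, with the SAA1 base first, the substitutions outside the run were G43A, C230G, G232A, T256C, T259A, T260C, T261A, A266G, T288C, G304A and A323G. Of the 295 windows of 75 bases in the SAA1 coding sequence, 112 were also found in SAA2 (38.0%). The deposited tables do not state how reads matching both genes were counted. With the counts of both genes summed, the log2 difference was 1.45. SAA2 also shares its strand and span with the readthrough gene SAA2-SAA4, which had 3, 1 and 0 counts in the control libraries and 3, 2 and 0 counts in the knockdown libraries.

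Levels can be compared between genes only per length, for which the deposited FPKM values were used. The comparison depends on the gene length behind the deposited values, which came to 710 bases for SAA1 and 2242 bases for SAA2. The mean control ratio of SAA1 to SAA2 was 9.24 in counts and 29.2 in FPKM, so the FPKM of SAA2 is uncertain beside that of SAA1. In the control, SLPI was the highest at 105.8 ± 6.26 FPKM, followed by SAA1 at 68.6 ± 3.96 FPKM and LCN2 at 63.6 ± 1.70 FPKM. The ranges of SAA1 and LCN2 overlapped, as did those of PGLYRP4 (0.350 ± 0.183 FPKM) and OLFM4 (0.199 ± 0.119 FPKM) near the bottom. PI3 (17.3 ± 2.29 FPKM) and SAA2 (2.35 ± 0.101 FPKM) lay between these pairs, and PIGR was the lowest at 0.0609 ± 0.0322 FPKM. In the knockdown, SAA1 was the highest at 185.5 ± 2.77 FPKM, above SLPI at 128.3 ± 1.2 FPKM, LCN2 at 73.4 ± 3.01 FPKM and PI3 at 41.1 ± 4.52 FPKM. SAA2 (8.54 ± 0.595 FPKM), OLFM4 (7.36 ± 0.266 FPKM), PGLYRP4 (3.31 ± 0.590 FPKM) and PIGR (1.85 ± 0.136 FPKM) followed, and no neighbours in that order overlapped. SAA1 thus made up 26.6% of the summed FPKM of the 8 genes in the control and 41.3% in the knockdown, while SLPI made up 41.0% and 28.6%. The genes with the largest folds, OLFM4 and PIGR, stayed among the lower ones in level.

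**Figure D3:**
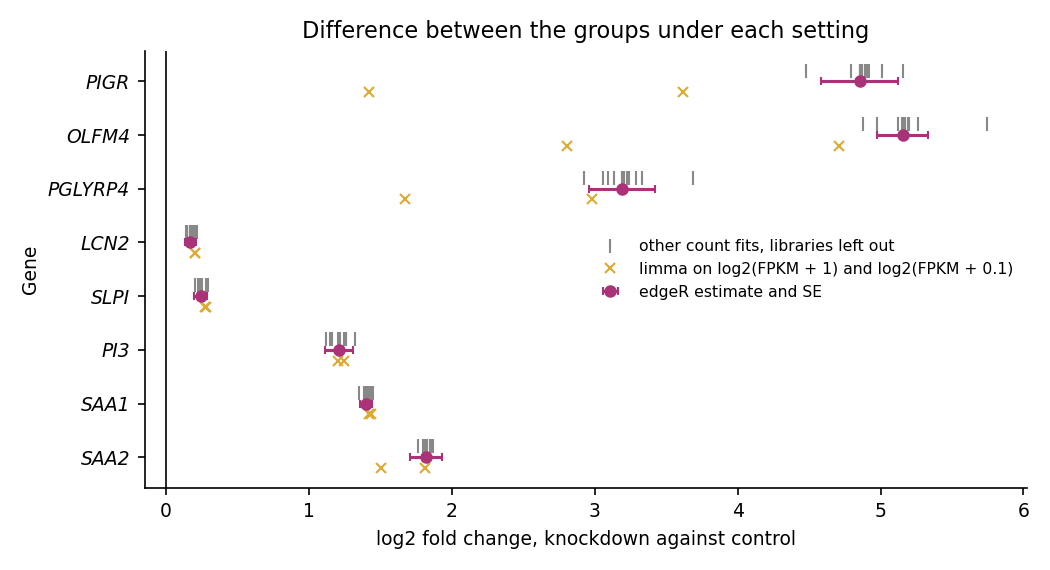
Fitted log2 difference, knockdown minus control, for each of the 8 genes with its standard error (edgeR, n = 3 and 3), described without a test because the genes were chosen on it. Values run from 0.17 for LCN2 to 5.15 for OLFM4.

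Promoter sequences were found for PIGR, OLFM4, PGLYRP4 and LCN2 and are shown because these genes include the largest and the smallest folds of the 8. Each is the 250 bases before the RefSeq gene start (GRCh38.p14), 5′ to 3′ on the gene's strand, with capitals where the letters match a searched motif on either strand. The windows of PIGR, OLFM4 and PGLYRP4 end at the gene start of the deposited table. That of LCN2 lies inside the gene as deposited, beginning 132 bases after its start there, so its match positions count from the RefSeq start alone.
PIGR chr1:206946467-206946716, minus strand: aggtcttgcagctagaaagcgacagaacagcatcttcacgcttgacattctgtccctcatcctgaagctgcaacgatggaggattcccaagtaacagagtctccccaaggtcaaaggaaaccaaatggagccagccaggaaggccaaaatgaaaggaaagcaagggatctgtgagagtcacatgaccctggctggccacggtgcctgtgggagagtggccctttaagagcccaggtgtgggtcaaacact
OLFM4 chr13:53028563-53028812, plus strand: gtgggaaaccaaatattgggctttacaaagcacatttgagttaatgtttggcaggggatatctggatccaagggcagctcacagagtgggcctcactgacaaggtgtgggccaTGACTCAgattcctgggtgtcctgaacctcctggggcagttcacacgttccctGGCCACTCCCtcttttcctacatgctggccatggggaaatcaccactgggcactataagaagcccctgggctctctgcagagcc
PGLYRP4 chr1:153348842-153349091, minus strand: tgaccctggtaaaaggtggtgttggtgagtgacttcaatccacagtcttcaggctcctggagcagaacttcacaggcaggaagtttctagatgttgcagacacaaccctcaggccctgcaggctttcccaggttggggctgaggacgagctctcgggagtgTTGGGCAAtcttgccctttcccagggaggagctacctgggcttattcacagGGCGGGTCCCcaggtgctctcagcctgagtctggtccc
LCN2 chr9:128149203-128149452, plus strand: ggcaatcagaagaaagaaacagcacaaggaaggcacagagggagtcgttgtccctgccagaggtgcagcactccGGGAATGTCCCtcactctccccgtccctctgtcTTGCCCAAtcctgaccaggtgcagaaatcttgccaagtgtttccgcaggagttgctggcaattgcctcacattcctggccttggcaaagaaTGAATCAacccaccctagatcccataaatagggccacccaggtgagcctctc
The motifs searched were NF-kB (GGGA and CC with 4 bases of any kind between them), C/EBP (TTGCNNAA), STAT (TTCNNNGAA), the interferon response element (GAAA repeated after 2 bases of any kind) and AP-1 (TGANTCA). LCN2 held an NF-kB match 176 to 167 bases before the start, overlapped by another on the opposite strand 175 to 166 bases before it, a C/EBP match at 143 to 136 and an AP-1 match at 52 to 46. OLFM4 held an AP-1 match at 137 to 131 and an NF-kB match on the opposite strand at 84 to 75. PGLYRP4 held a C/EBP match at 89 to 82 and an NF-kB match at 38 to 29, both on the opposite strand. None of the motif letters occurred in the PIGR window. Over the same 250-base window of all 35116 promoters in the table, 22.6% held the NF-kB letters, 9.05% the C/EBP letters, 6.57% the AP-1 letters, 6.57% the STAT letters and 3.02% the interferon response element. Adding the 50 bases after the start, for 300 bases in all, gave no further match in these 4 genes. A match describes letters only.

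Other secreted antimicrobial genes moved in both directions. Of 36 in the list, 11 were tested, of which 6 were higher, 4 were lower and 1 did not pass (median log2 difference 0.19). Over all genes tested, 26.9% were higher and 27.4% were lower, and each list below is to be set beside these shares. In every list a gene could pass the filter on low counts through the higher group alone. RNASE7, an antimicrobial ribonuclease of skin and oral epithelium, fell from 595.4 ± 15.4 to 366.7 ± 8.41 CPM (log2 -0.70 ± 0.024, adjusted p = 3.67e-38, edgeR). Per length it was the highest of these genes, at 416.6 ± 10.7 FPKM in the control and 263.0 ± 5.79 FPKM in the knockdown, above SAA1 and SLPI in both groups. CST3, the cysteine protease inhibitor cystatin C, fell as well (log2 -0.40 ± 0.032, adjusted p = 2.53e-18, edgeR). CCL20, a chemokine with antimicrobial activity, rose from 15.8 ± 0.161 to 37.1 ± 1.52 CPM (log2 1.23 ± 0.075, adjusted p = 2.63e-24, edgeR), and ZG16B, a secreted lectin of saliva, rose from 0.971 to 4.5 CPM (log2 2.20 ± 0.25, adjusted p = 4.96e-12). The summed level of the listed genes was 851.1 to 896.7 CPM in the control libraries and 618.5 to 634.0 CPM in the knockdown libraries. That order rests on RNASE7 and CST3: without these 2 genes the sum was 113.6, 77.9 and 83.1 CPM in the control libraries against 110.1, 114.2 and 112.4 CPM in the knockdown libraries. The untested DEFB103A gave 34.3 CPM of that sum in control replicate 1. It had 0.267 and 0.536 CPM in control replicates 2 and 3 and 0 in the knockdown libraries. The overlap of the groups in that sum therefore rests on 1 gene in 1 library. DEFB4A, a beta-defensin named after its values were seen, had 106, 92 and 127 counts in the control libraries and 51, 47 and 39 in the knockdown libraries, and its near-identical copy makes the counting uncertain. DEFB103B, likewise one of a pair of near-identical copies, had 12, 18 and 11 counts in the control libraries and 1, 0 and 1 in the knockdown libraries, so 2 of the 4 lower calls rest on genes whose counts are uncertain.

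Within the WAP family to which SLPI and PI3 belong, 2 of 19 listed genes were tested. WFDC2 rose by 0.29 ± 0.047 on the log2 scale (58.8 to 72.2 CPM, adjusted p = 1.03e-07, edgeR), and WFDC3 fell from 10.1 to 4.05 CPM (log2 -1.32 ± 0.14, adjusted p = 8.03e-13). Family members of PGLYRP4, OLFM4 and LCN2 and the antibody transport genes gave 10 tested genes of 27, with 4 higher, 3 lower and 3 not past the test (median log2 difference 0.10). PGLYRP3, the paralog beside PGLYRP4, had 9, 5 and 10 counts in the control libraries and 37, 50 and 30 in the knockdown libraries (log2 2.37 ± 0.37, adjusted p = 8.42e-08). It could pass the filter through the knockdown libraries alone. RAB3D, a small GTPase of regulated secretion, rose from 3.40 to 7.95 CPM (log2 1.22 ± 0.16, adjusted p = 1.44e-09). FCGRT, the neonatal Fc receptor that carries IgG, rose from 6.58 to 11.8 CPM (log2 0.84 ± 0.13, adjusted p = 3.55e-08). MYO5B, a motor of recycling endosomes, fell from 20.8 to 13.3 CPM (log2 -0.64 ± 0.092, adjusted p = 7.86e-09).

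Of 30 other acute phase genes, 5 were tested and all 5 were higher (median log2 difference 0.94), against 26.9% of all genes tested. CP and SAA4, given below, could each pass the filter through the knockdown libraries alone. A gene let in that way counts towards the higher side, so nothing is read from this count. SERPINA1, alpha-1 antitrypsin, rose from 40.7 ± 0.934 to 64.0 ± 1.62 CPM (log2 0.65 ± 0.052, adjusted p = 2.13e-18, edgeR). LRG1 rose from 25.1 to 34.4 CPM (log2 0.45 ± 0.069, adjusted p = 3.8e-08). STEAP4, a metalloreductase, rose from 2.03 to 3.90 CPM (log2 0.94 ± 0.22, adjusted p = 0.000157), and CP, ceruloplasmin, had 2, 5 and 5 counts in the control libraries and 21, 13 and 11 in the knockdown libraries (log2 1.98 ± 0.53, adjusted p = 0.00101). SAA4, the constitutive serum amyloid A, had 11, 4 and 2 counts in the control libraries and 14, 14 and 9 in the knockdown libraries, and passed narrowly (adjusted p = 0.0448). The call on SAA4 was lost under DESeq2, without the filter, on both FPKM scales and when any library but control replicate 1 was left out, and those on CP and STEAP4 were lost on both FPKM scales.

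Mucins and genes of mucus secretion gave 11 tested genes of 26, of which 7 were higher, 1 was lower and 3 did not pass (median log2 difference 1.30). MUC2 had 8, 3 and 6 counts in the control libraries, MUC4 had 9, 3 and 3, and FCGBP had 16, 8 and 5. Each could pass the filter through the knockdown libraries alone, which adds to the higher side, so nothing is read from the count called higher. AGR2, a disulfide isomerase needed for mucin folding, rose from 6.94 to 20.0 CPM (log2 1.52 ± 0.11, adjusted p = 4.21e-20, edgeR). MUC2, the gel-forming mucin of the intestine, rose from 0.306 to 2.46 CPM (log2 2.98 ± 0.40, adjusted p = 8.93e-10). GALNT12, which starts O-glycosylation, and MUC20, a membrane mucin, rose by 1.43 and 1.35 on the log2 scale (adjusted p = 1.14e-10 and 1.76e-08). The single lower call, on MUC1, was lost under DESeq2, library totals, upper-quartile scaling, no filter and both FPKM scales. It was also lost without control replicate 2 or 3 and without knockdown replicate 1 or 2.

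Regulators known to act on genes of this kind gave 35 tested genes of 39, with 13 higher, 11 lower and 11 not past the test (median log2 difference -0.0046). IL6R, the IL-6 receptor chain, fell from 193.6 ± 2.76 to 95.6 ± 6.4 CPM (log2 -1.02 ± 0.036, adjusted p = 1.35e-37, edgeR). CEBPD, a C/EBP factor of the acute phase, rose from 12.2 ± 0.980 to 33.1 ± 1.25 CPM (log2 1.44 ± 0.083, adjusted p = 1.36e-25). The other listed C/EBP genes differed in direction. CEBPB was called lower (198.5 to 152.2 CPM, log2 -0.38), CEBPA was called higher (1.98 to 3.83 CPM, log2 0.95) and CEBPG did not pass (log2 -0.052). IL20RB, a receptor chain for IL-20 family cytokines, rose from 10.4 to 28.4 CPM (log2 1.45 ± 0.090, adjusted p = 9.73e-24). Among receptors and protein partners of the 8 gene products, 14 of 26 were tested, with 7 higher, 2 lower and 5 not past the test (median log2 difference 0.056). TLR4 rose from 17.7 to 50.1 CPM (log2 1.5 ± 0.068, adjusted p = 1.89e-31), and TLR2, a receptor reported to bind serum amyloid A, rose from 8.06 to 14.2 CPM (log2 0.82 ± 0.11, adjusted p = 2.89e-09). CTSC, the protease that activates neutrophil elastase, and PLSCR1, a scramblase reported to bind SLPI, rose by 0.28 and 0.33 on the log2 scale (adjusted p = 1.84e-15 and 2.97e-14). SLC22A17, the reported LCN2 receptor, had a single count in 1 knockdown library and 0 counts in the other 5.

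**Figure D4:**
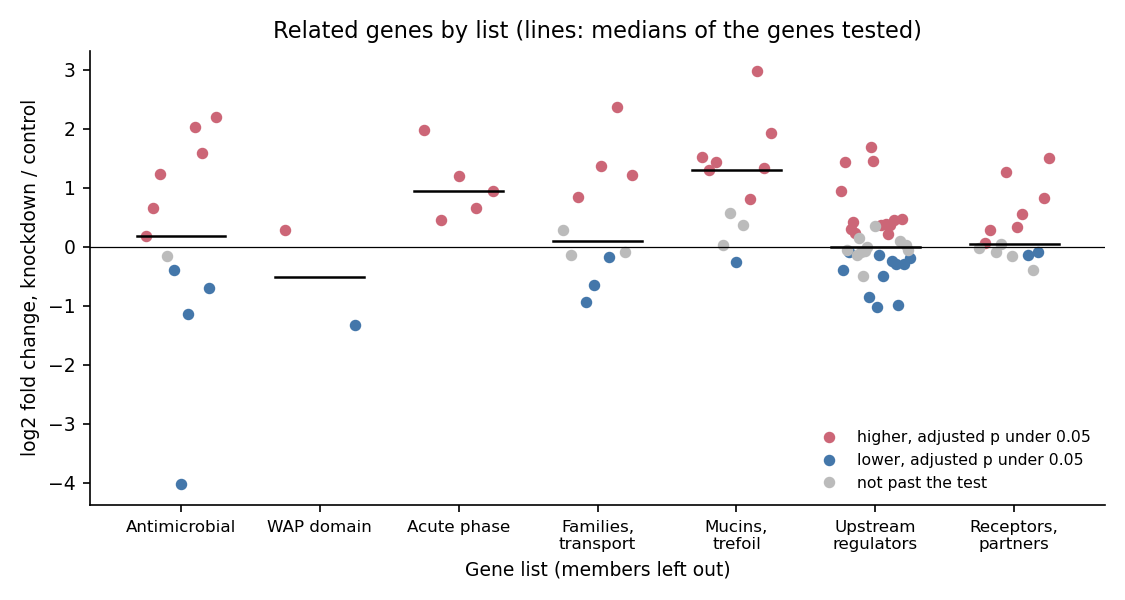
Fitted log2 difference, knockdown minus control, of each tested gene in the lists of related genes, with 1 point per gene and the median of each list. The acute phase list holds 5 tested genes, all above 0, and the antimicrobial and regulator lists spread to both sides of 0.

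Genes within 250000 bases of the 8 genes were examined next, as several of them lie in known gene clusters. Of 106 neighbours with counts, 64 were tested, with 18 higher (28.1%), 20 lower (31.2%) and 26 not past the test (median log2 difference 0.061), close to the shares over all genes tested. Beside PIGR, 6 of 9 tested neighbours were lower and 1 was higher. IL24 (log2 -1.48), FCMR (-0.94, at 5275 bases the closest of these), C1orf116 (-0.93), PFKFB2 (-0.51), MAPKAPK2 (-0.50) and YOD1 (-0.30) fell there, and IL20 rose by 1.22. Beside PGLYRP4, 6 of 14 were higher and 3 were lower. PGLYRP3, S100A9 (log2 1.69, 75.7 to 244.5 CPM), S100A7A (1.48), S100A7 (1.45), S100A8 (1.22) and S100A4 (0.77) rose there, and S100A2 (-0.95), S100A6 (-0.87) and S100A3 (-0.39) fell. The call on S100A7A was lost on both FPKM scales, that on YOD1 on log2(FPKM + 1), and that on S100A3 without knockdown replicate 1. Around SAA1, 2 of 8 tested neighbours were higher, SAA4 and HPS5, and 4 were lower, LDHA among them. Around SLPI, SDC4 (0.47) and WFDC2 rose and PIGT (-0.40) fell, with 5 not past the test. Around LCN2, 7 of 20 were higher and 5 lower, and the 1 tested neighbour of OLFM4 did not pass.

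**Figure D5:**
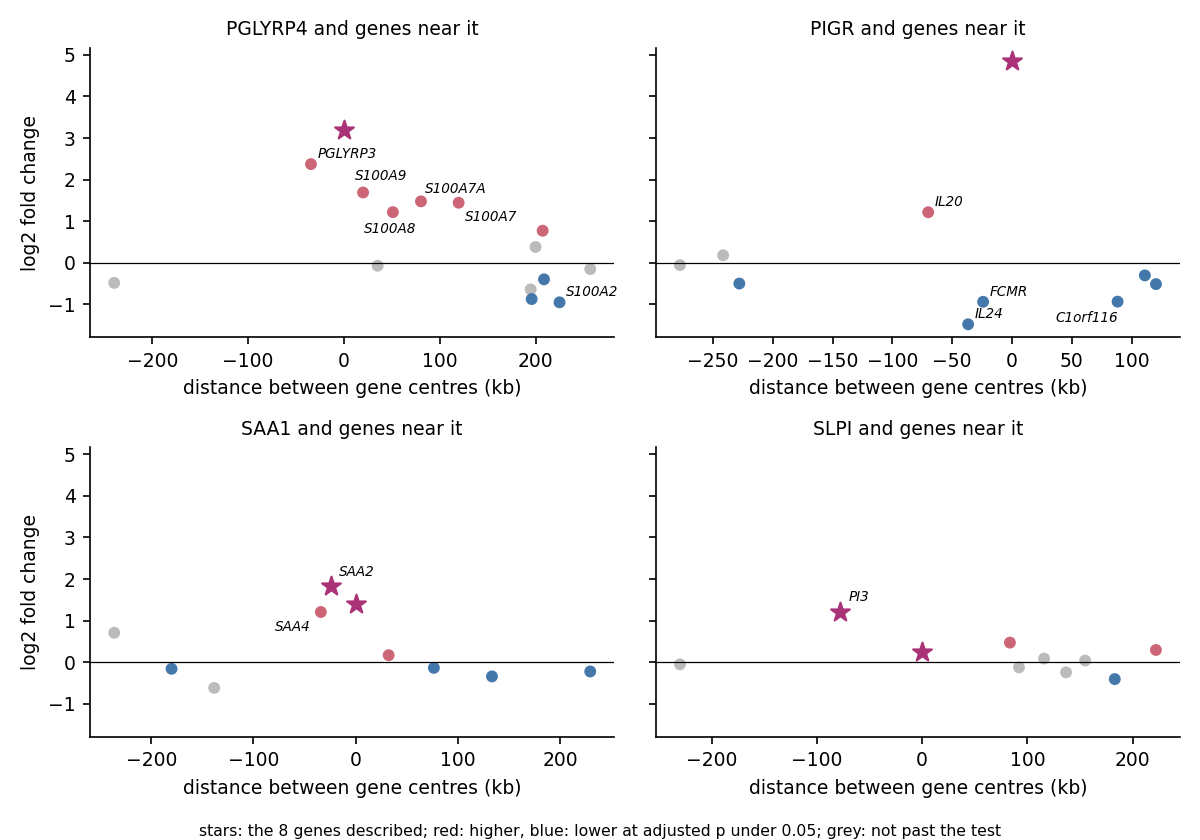
Fitted log2 difference of tested genes near PGLYRP4, PIGR, SAA1 and SLPI against the distance between gene centres in kilobases. Stars mark the 8 genes, red points genes higher and blue points genes lower at an adjusted p under 0.05, and grey points those not past the test; 6 of 14 neighbours of PGLYRP4 and 1 of 9 neighbours of PIGR were higher.

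Profiles across the 6 libraries were compared by the root mean square difference of centred log2 CPM, over 10391 protein-coding genes whose mean reached 5 CPM in whichever group was higher. PIGR was nearest to ABCG1 (0.341) and NUPR1 (0.483), and NUPR1 was also among the nearest to OLFM4 (0.703). PGLYRP4 was nearest to XAF1 (0.172) and C6orf15 (0.277). SAA1 was nearest to HLA-DRA (0.0406) and CEBPD (0.0478), and SAA2 to SREBF1 (0.0950) and CALB1 (0.0954). LCN2 was nearest to WDR45 and DOLPP1, SLPI to IFT43 and RAD17, and PI3 to DNHD1 and KRCC1, all at 0.0783 or less. A distance of this kind over 6 libraries in 2 groups describes these libraries alone.

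Some of the 8 genes are also products of neutrophils or glands, so markers of other cells were read in the same libraries. The 14 squamous markers were all tested, and their summed level was 4815 to 4980 CPM in the control and 5312 to 5350 CPM in the knockdown. Of these markers 6 were higher, 5 were lower and 3 did not pass the test (median log2 difference -0.0092). KRT5, a basal keratin, rose from 1506 to 2147 CPM, and without it the sum was 3340 to 3438 CPM in the control and 3170.0 to 3202 CPM in the knockdown. Of 14 neutrophil markers 7 had counts, with a summed level of 1.29 to 2.46 CPM in the control and 2.61 to 3.09 CPM in the knockdown. MPO had 5, 3 and 2 counts in the control libraries and 0, 0 and 1 in the knockdown libraries, LTF had 1 count in 1 library, and the highest mean was that of CXCR2. Of 16 leukocyte markers 11 had counts, summing to 62.8 to 67.6 CPM in the control and 71.2 to 77.3 CPM in the knockdown, mostly from LAPTM5, while PTPRC had 0 to 2 counts in every library. Of the 4 leukocyte markers tested, LAPTM5 and CD14 (log2 1.34) were higher and CSF1R (log2 -0.78) and CORO1A (log2 -0.57) were lower. Without LAPTM5 the leukocyte sum was 20.8 to 22.4 CPM in the control against 14.4 to 16.3 CPM in the knockdown. Of 16 gland and gut markers 7 had counts, summing to 2.41 to 3.06 CPM and 4.61 to 5.61 CPM. Of 11 stromal and endothelial markers 7 had counts, summing to 25.9 to 29.9 CPM and 65.9 to 70.5 CPM, mostly from CDH5. All 5 full sums were higher in the knockdown. Those of the squamous and leukocyte markers were not higher once KRT5 or LAPTM5, respectively, was left out. The neutrophil, gland and stromal sums were not recomputed without their highest genes, CXCR2, BHLHA15 and CDH5, so they may also rest on single genes. Of the 2 neutrophil markers tested, 1 was higher and 1 did not pass. The 2 gland and gut markers tested gave 1 higher and 1 not past the test. The 6 stromal and endothelial markers tested gave 4 higher, 0 lower and 2 not past the test (median log2 difference 0.85). The part of these markers in the levels of the 8 genes was not tested.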

How the data were processed

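Total RNA of 3 control and 3 DAZAP1 knockdown samples was extracted with TRIzol and sequenced by Illumina protocols, per the labels. The authors deposited raw counts and FPKM per gene for 30947 genes. The submitters' processing notes name Bowtie and GRCh38.p13, with no role. Which counter, annotation and strand setting were used is not given in the sources used here. Reads of genes that overlap, on the same or opposite strands, could therefore be assigned to either. The deposited FPKM values equal the deposited counts over a fixed gene length and a library factor: among 10061 genes that reached 100 counts in each library, the implied length differed by at most 8.83e-05 on the log2 scale. A symbol was lacking for 8026 genes.

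Columns bear other names than the samples and were matched by prefix and replicate number, N for control and SH for knockdown. Library totals were 16333542 to 18955230 counts. The variance between libraries of a group was 1.86 to 2.78 times that of counting noise (chi-square per degree of freedom).

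Deposited counts were tested with edgeR 4.0.16 in R 4.3.3 (filterByExpr, minimum count 10, which left 15374 genes; TMM scaling; robust quasi-likelihood F test; a single group term), with Benjamini-Hochberg adjustment across the genes tested and a threshold of 0.05. CPM and log2 differences were computed from the deposited counts. Errors are SD over 3 libraries or SE of the fit. Scripts were tested on simulated data. Alternatives used DESeq2 1.42.0, limma 3.58.1, other scalings and filters, a replicate block and left-out libraries.

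The members and gene lists were chosen with earlier results of these data known. Named are the members, up to 4 genes per list with the smallest adjusted p among those that passed, neighbours that passed and the 2 genes nearest in profile to each member. Some genes meeting the rule are left unnamed, and some are not reported here. DEFB4A, MUC1, MUC4, FCGBP, SLC22A17, CEBPA, CEBPB, CEBPG, the DEFB103 genes and the marker genes were chosen after their values were seen. Motifs were searched in Python 3.11.15 in RefSeq promoters (GRCh38.p14). SAA1, SAA2, SLPI and PI3 have no promoter printed.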

Additional observations from a re-analysis of the deposited data

How the results depend on the processing

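All 8 genes were higher in the knockdown under each of the 10 other fits that kept SAA1 and SAA2 apart and with each of the 6 libraries left out, and no result reversed. Of the results that answer a comparison, 388 values stayed within the limits set and 29 moved. With each library left out in turn the log2 difference was 4.48 to 5.16 for PIGR, 4.88 to 5.74 for OLFM4, 2.92 to 3.69 for PGLYRP4, 0.14 to 0.20 for LCN2 and 0.20 to 0.29 for SLPI, and mucins called lower numbered 0 to 1. On log2(FPKM + 1) the value was 1.42 for PIGR, 2.81 for OLFM4, 1.68 for PGLYRP4 and 1.51 for SAA2, and on log2(FPKM + 0.1) it was 3.62 for PIGR; a pseudocount shrinks the fold of low genes by construction. On log2(FPKM + 1) the genes called lower numbered 2756. On both FPKM scales 2 WAP genes and 2 acute phase genes were called higher, and 7 regulators and 0 partners lower. The stricter filter tested fewer genes and called 3 acute phase genes higher. Mucins called lower were 0 under DESeq2, library totals, upper-quartile scaling, no filter and both FPKM scales. Partners called lower were 1 under library totals and upper-quartile scaling. The cause of these moves was not tested except where stated. Upper-quartile scaling called 4800 genes higher and 3584 lower. Of the named single genes, 35 values in 12 genes lost their call and 986 did not change side.

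Replicate numbers did not pair the samples: deviations of same-numbered samples correlated at 0.00282, -0.000783 and -0.00632. With the replicate number as a block, 4101 genes were higher and 4206 lower. Few counts limit the control levels of PIGR, OLFM4 and PGLYRP4, and shared sequence limits SAA1 and SAA2.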

Other observations

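DEFB103A, a beta-defensin gene with a near-identical copy, had 627, 5 and 10 counts in the control libraries and 0, 0 and 0 counts in the knockdown libraries. It was not among the genes tested, and control replicate 1 alone holds nearly all of its counts. DEFB103B, the copy, had 12, 18 and 11 counts in the control libraries and 1, 0 and 1 in the knockdown libraries. DEFB103B was tested and called lower (fitted log2 difference -4.02 ± 0.78, SE, adjusted p = 8.9e-06, edgeR). Counts could be split between these copies, so neither is read alone. Both were chosen after their values were seen.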
